A study of Mus musculus with 21 samples.

Results

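The genes described here were 9 members of the CC chemokine system: the ligands Ccl2, Ccl3, Ccl4, Ccl6, Ccl7, Ccl8 and Ccl9, and the receptors Ccr1 and Ccr2. They are 9 of the 12393 genes with a probe set of their own on the array. They were taken by name, and every probe set that the array annotation gives to one of them was used. This gave 14 probe sets, 9 for the 7 ligands and 5 for the 2 receptors, of 22626 probe sets without controls on the array. After the dimmest 33.3% of all probe sets had been left out, 11 probe sets of 7 genes went into the tests. The 3 left out were the single probe sets of Ccl7 and Ccl3 and the second one of Ccr1, whose values are given below all the same. RNA came from the whole right lung of inbred mice of the strains C57BL/6, C3H/HeJ and A/J, and was measured on 21 Affymetrix arrays. Treated mice had been given bleomycin, a DNA-breaking cancer drug with toxic effects on the lung, through an osmotic minipump. The C57BL/6 arrays covered moribund mice (2 arrays, with no time given), 3 weeks (2), 6 weeks (1) and control (2). The C3H/HeJ arrays covered 3 weeks, 6 weeks and control (2 each), and the A/J arrays 3 weeks (4), 6 weeks (2) and control (2). Treated males had been given 100 mg/kg and treated females 125 mg/kg, except that 2 of the A/J pools at 3 weeks had lower doses, 80 mg/kg for males and 100 mg/kg for females. Each array measured 1 pool of several mice of one sex, so the spread between the arrays of a group is a spread between pools, mostly 1 male and 1 female. The sources used here give neither the age of the mice nor what the control mice received.

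CC chemokines are small secreted proteins that bind receptors coupled to G proteins on leukocytes and direct them into tissue. Ccl2 and Ccl7 act on Ccr2, the receptor through which monocytes leave the bone marrow. Ccl3, Ccl6, Ccl7 and Ccl9 act on Ccr1, which monocytes, macrophages and neutrophils carry, while mouse Ccl8 acts on Ccr8. Ccl6 and Ccl9 are found in rodents and have no direct human counterpart. In injured lung these ligands are known as products of macrophages and, for Ccl2, also of epithelial and mesenchymal cells. C57BL/6 mice are known to scar more after bleomycin than C3H mice, and C3H/HeJ mice carry a defective Tlr4, the receptor for bacterial endotoxin.

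In the mouse reference GRCm38.p6 the 7 ligand genes lay on chromosome 11 in 2 groups. Ccl2 began at 82035577, with Ccl7 10 kb and Ccl8 80 kb further on. Ccl9, Ccl6, Ccl3 and Ccl4 lay between 1537 and 1613 kb beyond the start of Ccl2. The receptors lay on chromosome 9, Ccr1 from 123962126 to 123968692 and Ccr2 from 124101918 to 124109140. The 250 bases before the transcript start of RefSeq follow for the 4 genes that the results turn on and for which the table holds an entry, 5′ to 3′ along the gene, with motif matches in capitals.
Ccl8, chr11:82114935-82115184, plus strand: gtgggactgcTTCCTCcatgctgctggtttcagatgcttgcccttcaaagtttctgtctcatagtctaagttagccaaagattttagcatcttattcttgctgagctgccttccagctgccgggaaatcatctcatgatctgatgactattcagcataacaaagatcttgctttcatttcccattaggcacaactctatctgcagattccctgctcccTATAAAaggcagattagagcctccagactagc
Ccl9, chr11:83578637-83578886, minus strand: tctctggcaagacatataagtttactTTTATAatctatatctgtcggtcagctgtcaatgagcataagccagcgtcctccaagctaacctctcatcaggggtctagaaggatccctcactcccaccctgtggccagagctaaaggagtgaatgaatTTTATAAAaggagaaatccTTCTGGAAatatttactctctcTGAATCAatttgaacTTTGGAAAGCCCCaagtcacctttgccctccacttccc
Ccl6, chr11:83593088-83593337, minus strand: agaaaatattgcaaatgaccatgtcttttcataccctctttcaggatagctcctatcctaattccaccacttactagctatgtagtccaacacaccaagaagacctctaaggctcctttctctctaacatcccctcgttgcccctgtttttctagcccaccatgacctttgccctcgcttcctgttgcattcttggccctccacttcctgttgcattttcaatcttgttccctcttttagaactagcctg
Ccr1, chr9:123968693-123968942, minus strand: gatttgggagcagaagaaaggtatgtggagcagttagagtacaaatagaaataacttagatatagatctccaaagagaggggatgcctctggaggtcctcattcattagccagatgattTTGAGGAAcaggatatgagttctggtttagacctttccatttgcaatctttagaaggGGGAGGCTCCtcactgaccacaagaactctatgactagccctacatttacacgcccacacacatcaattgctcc
Both strands were searched for 7 motifs. These were TATAAA (the TATA box), TGANTCA (AP-1), TTNNGNAA (C/EBP), GAGGAA (PU.1), GAAA followed by any 2 bases and GAAA (an interferon response element), TTCNNNGAA (STAT) and the NF-kappa B motif. In Ccl8 the capitals mark a TATA box 32 to 27 bases before the start and a PU.1 match 240 to 235 bases before it. In Ccl9 they mark TATA box matches, the nearest 92 to 87 bases before the start, an AP-1 match at 53 to 47 bases, C/EBP matches at 75 to 68 and 38 to 31 bases, and an NF-kappa B match at 35 to 26 bases, which overlaps the second C/EBP match. In Ccr1 they mark a C/EBP match at 131 to 124 bases, within which a PU.1 match lies, and an NF-kappa B match at 74 to 65 bases. None of the 7 motifs matched in the Ccl6 window. Of 32851 mouse promoters of the same length, 12.4% held the TATA box, 6.75% the AP-1, 36.8% the C/EBP, 23.3% the PU.1, 2.98% the interferon, 7.02% the STAT and 7.25% the NF-kappa B motif. A match describes these letters only and shows no binding in these lungs.

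Array medians ran from 58.6 to 111.3 as deposited, so the arrays were quantile normalised, and intensities below are on that common scale. All tests were made on log2 of the intensity plus 16, which understates the fold change of dim probe sets. The defining lung markers were bright on every array, Sftpc (surfactant protein C) at 6040.5 to 7395 and Scgb1a1 (the club cell secretory protein) at 6372 to 7760.4. The Gapdh 3′/5′ signal ratio, a measure of RNA integrity, ran from 0.77 to 2.085 and was highest in the C3H/HeJ female pool at 6 weeks. Xist separated the male from the female arrays with no overlap. Levels below are compared between arrays, for 1 probe set at a time or, for cell markers, also as a sum over a list. No test compares the level of 1 probe set with that of another. Where a probe set is called bright or dim, or is set beside a sum, this is a description only.

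At 3 weeks Ccl2, Ccl6, Ccl8 and Ccl9 rose in C57BL/6 lung together with Ccr1 and Ccr2, and Ccl4 did not pass the test. Ccl2, Ccl9, Ccr1 and Ccl8 rose most, by 4.52 to 7.18 times on the fitted scale, and Ccl6 rose by 2.34 and 2.86 times in its 2 probe sets. In all, 8 of the 11 tested probe sets, from 6 of 7 genes, were higher at an adjusted p under 0.05, and 0 were lower, whereas 5.66% of all 15084 tested probe sets were higher. The median change of the 11 was 1.52 (log2), against a median of -0.01 over all probe sets. Both treated arrays lay above both control arrays in 10 of the 11, as they did in 29.1% of all probe sets. In whole lung, a change in the number of cells of a type and a change in RNA per cell cannot be told apart.

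**Figure D1:**
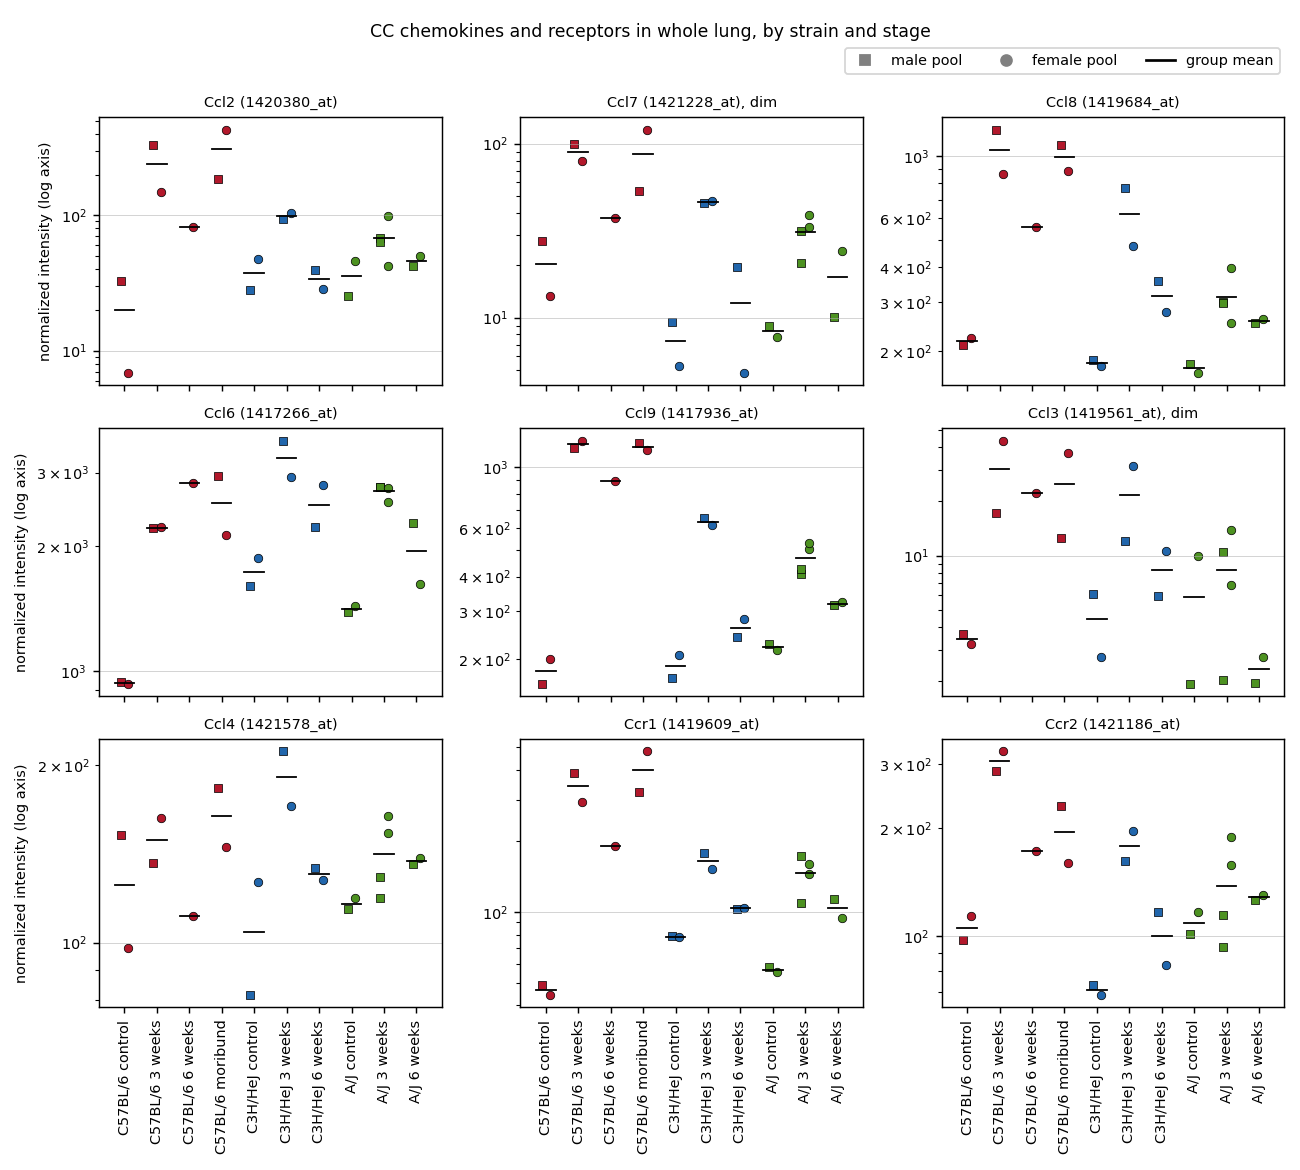
Normalised intensity (log axis) of the brightest probe set of each of the 9 genes on the 21 arrays, by strain and stage; squares are male pools, circles female pools and bars group means, and dim marks genes left out of the tests. Ccl9 and Ccr1 show the C57BL/6 arrays at 3 weeks and moribund above all arrays of the other strains, while the control arrays of all 3 strains lie between 163.0 and 227 for Ccl9.

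Among the ligands of Ccr2, Ccl2 (1420380_at), the main monocyte attractant of the family, read 333.5 in the male and 148.5 in the female C57BL/6 pool at 3 weeks, against 32.9 and 6.82 in the male and female control pools. The groups were far apart, and the female control pool was the lowest of all 21 arrays. Ccl2 was dim in these controls, at a mean percentile of 18.7 on the array, and passed the filter on its mean over all 21 arrays. The change was 2.84 ± 0.44 (log2, SE; limma, adjusted p = 0.0005), and without the female control pool it was 2.23 (adjusted p = 0.015). Ccl7 (1421228_at), which acts on the same receptor, was dim, with 100.0 and 79.3 in the C57BL/6 pools at 3 weeks and 27.4 and 13.3 in the control pools. The treated pools lay above the control pools, and in a fit without the filter on dim probe sets the change was 1.56 ± 0.34 (adjusted p = 0.013). Ccl8 (1419684_at), a ligand of Ccr8 in the mouse, read 1247 and 865 at 3 weeks, against 211 and 224 in the control pools. Both treated pools were several times the control level, and the change was 2.18 ± 0.21 (adjusted p = 8.8e-06).

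Among the ligands of Ccr1, Ccl9 (1417936_at) read 1176 and 1246.5 at 3 weeks, against 163.0 and 200.1 in the control pools. Male and female pools agreed closely, and the change of 2.64 ± 0.14 (adjusted p = 1.2e-08) had the smallest p of the 11 probe sets. The second Ccl9 probe set (1448898_at) read 473 and 471 against 66.6 and 68.8 in controls and changed by 2.55 ± 0.26 (adjusted p = 1.1e-05). Ccl6 (1417266_at), a macrophage product, was already bright in control lung. It read 2207 and 2219.9 at 3 weeks, against 943.5 and 933 in the control pools, a change of 1.22 ± 0.16 (adjusted p = 0.00014). Its second probe set (1420249_s_at), whose suffix marks probes shared by several transcripts, read 1227 and 873 against 346 and 356 and changed by 1.52 ± 0.15 (adjusted p = 7e-06). Ccl3 (1419561_at) was near the bottom of the scale, at 17.3 and 43.6 in the pools at 3 weeks against 3.65 and 3.2 in the controls. Without the filter it changed by 1.2 ± 0.28 (adjusted p = 0.017). Ccl4 (1421578_at), a product of activated macrophages, read 136 and 162 at 3 weeks against 152 and 97.8 in controls. The groups overlapped, and the difference of 0.25 ± 0.22 did not pass the test (adjusted p = 0.55).

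Of the receptors, Ccr1 (1419609_at) read 390.0 in the male and 292 in the female pool at 3 weeks, against 48.9 and 44.3 in the control pools. The change was 2.5 ± 0.22 (adjusted p = 2.6e-06). Its dim second probe set (1419610_at) ran the same way, at 56.6 and 42.7 against 11.2 and 11.6, with a change of 1.25 without the filter (adjusted p = 0.046). The brightest Ccr2 probe set (1421186_at) read 288 and 326 at 3 weeks, against 97.5 and 114 in controls, a change of 1.41 ± 0.25 (adjusted p = 0.0014). The other two Ccr2 probe sets (1421187_at and 1421188_at) read higher in both treated pools than in both control pools. Their differences of 0.97 ± 0.33 and 0.63 ± 0.21 did not pass the test (adjusted p = 0.075 and 0.062). They stayed uncalled under 28 and 31 of 35 alternative settings and passed under 7 and 4. Among the latter were fits without 1 of the moribund pools, which are not part of this comparison.

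**Figure D2:**
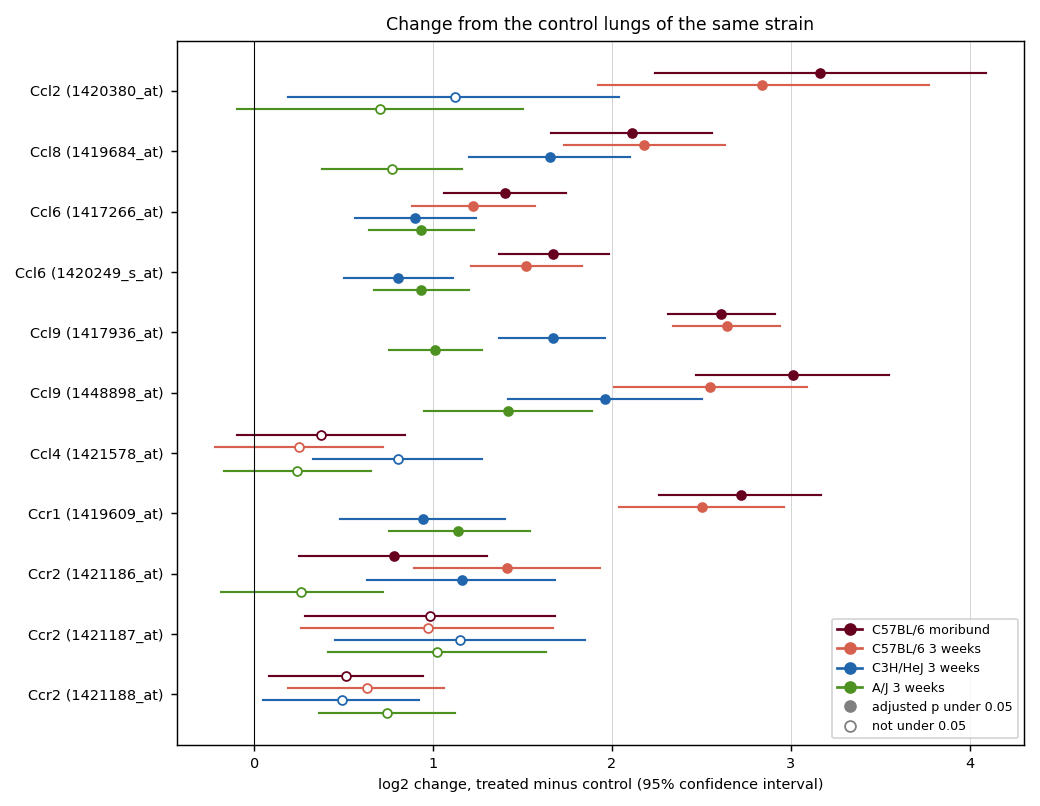
Change from the control arrays of the same strain (log2, with 95% confidence interval) for the 11 tested probe sets in the groups moribund and 3 weeks; filled points passed an adjusted p under 0.05. The C57BL/6 changes of Ccl2, Ccl8, Ccl9 and Ccr1 lie between 2.11 and 3.16, above those of C3H/HeJ and A/J.

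In moribund C57BL/6 lung Ccl2, Ccr1, Ccl9, Ccl8 and Ccl6 were again well above control, and Ccl4 was not. In all, 8 of 11 probe sets from 6 genes were higher than in control lung and 0 lower, where 5.86% of all probe sets were higher. The median change of the members was 1.67, against 0.0 over all probe sets, and 10 of 11 lay above both control arrays, against 26.2% of all. The moribund and 3 week groups were set against the same 2 control pools, so these results are not separate evidence. Ccl2 read 185 in the moribund male and 429.9 in the moribund female pool, against 32.9 and 6.82 in the controls. The change was 3.16 ± 0.44 (adjusted p = 0.00016), or 2.55 (adjusted p = 0.0063) without the female control pool. Ccr1 read 324 and 480.3 in the moribund pools, against 48.9 and 44.3 in the controls, and changed by 2.72 ± 0.22 (adjusted p = 9.1e-07). For Ccl9 the values were 1217 and 1152.5 in the moribund pools against 163.0 and 200.1 in the controls, a change of 2.61 ± 0.14 (adjusted p = 1.5e-08). The second Ccl9 probe set changed by 3.01 ± 0.26 (adjusted p = 1.5e-06).

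Ccl8 read 1102 and 889 in the moribund pools, against 211 and 224 in the controls, and changed by 2.11 ± 0.21 (adjusted p = 9.7e-06). Ccl6 read 2942 and 2123, against 943.5 and 933, and its probe sets changed by 1.4 ± 0.16 and 1.67 ± 0.15 (adjusted p = 3.3e-05 and 1.7e-06). Dim Ccl7 stood at 53.6 and 120.5 in the moribund pools and Ccl3 at 12.5 and 37.2, and without the filter they changed by 1.45 (adjusted p = 0.018) and 1.0 (adjusted p = 0.038). Ccl4 read 183 and 145 and did not pass the test (0.37 ± 0.22, adjusted p = 0.31). The brightest Ccr2 probe set read 230.5 and 159.5, against 97.5 and 114 in the controls, and just passed at 0.78 ± 0.25 (adjusted p = 0.049). This call was lost under 22 of 36 alternative settings. The other two Ccr2 probe sets differed by 0.98 and 0.51 (adjusted p = 0.064 and 0.12), and each rested on 1 of the moribund pools. The first (1421187_at) read 272.2 in the male and 110.0 in the female pool, against 88.4 and 73.9 in the controls, and differed by 1.63 without the female pool (adjusted p = 0.0063) and by 0.33 without the male pool. The second (1421188_at) read 90.6 and 142.0, against 79.1 and 71.4, and differed by 0.83 without the male pool (adjusted p = 0.019) and by 0.19 without the female pool. Set directly against 3 weeks, moribund lung showed 0 calls among the members by limma (0.00663% of all probe sets were called), with differences from -0.63 for Ccr2 to 0.46 for the second Ccl9 probe set and 1 member at an unadjusted p under 0.05. The interval for Ccl9 ran from -0.33 to 0.27 and that for Ccl2 from -0.60 to 1.24.

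The C57BL/6 group at 6 weeks held a single array of female mice, so its differences carry no test. Ccl9 read 891 on it, against 163.0 and 200.1 on the control arrays, and Ccl8 read 559 against 211 and 224. Ccr1 stood at 189.9 against 48.9 and 44.3, Ccl6 at 2829 against 943.5 and 933, and Ccl2 at 82.1 against 32.9 and 6.82. Above the control mean by more than 1 (log2) were 8 of the 11 member probe sets and 1.94% of all probe sets. The array read lower than the female pool at 3 weeks in 8 of 11 member probe sets, as in 53.3% of all probe sets. The differences were -0.75 for Ccl2, -0.62 for Ccl8 and -0.58 for Ccr1 (1419609_at). For Ccl9 they were -0.48 in the brightest and 0.07 in the second probe set. For Ccl6 they were 0.35 in the brightest and -0.06 in the second probe set. Ccl4, at 111, lay between its 2 control values.

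In C3H/HeJ lung at 3 weeks Ccl9 and Ccl8 rose most, and Ccl6, Ccr1 and 1 of the Ccr2 probe sets rose by less. Higher at an adjusted p under 0.05 were 7 of the 11 probe sets, from 5 of 7 genes, and 0 were lower, where 1.13% of all probe sets were higher. All 11 lay above both control arrays, as did 21.6% of all probe sets, and the member median was 1.12, against -0.02 over all. Ccl9 read 652 in the male and 614 in the female pool, against 171 and 207 in the controls. The change of 1.67 ± 0.14 (adjusted p = 9.2e-06) passed under every alternative setting tried. The second Ccl9 probe set read 527 and 434, against 127 and 97.1, and changed by 1.96 ± 0.26 (adjusted p = 0.00068).

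Ccl8 read 768 and 477 at 3 weeks in C3H/HeJ, against 186 and 178 in controls, a change of 1.65 ± 0.21 (adjusted p = 0.00064). The male pool was the higher of the treated pair, and both were well above the controls. Ccl6 read 3582 and 2924.5 against 1599 and 1869.5, a change of 0.9 ± 0.16 (adjusted p = 0.0079), and its second probe set changed by 0.8 ± 0.15 (adjusted p = 0.008). Ccr1 read 178 and 152 against 78.5 and 77.8, a change of 0.94 ± 0.22 (adjusted p = 0.038). The brightest Ccr2 probe set read 161 and 196 against 73.2 and 68.8, a change of 1.16 ± 0.25 (adjusted p = 0.023). The others did not pass (1.15 and 0.49, adjusted p = 0.096 and 0.28). The first of these (1421187_at) stayed uncalled under 31 of 35 alternative settings. It passed under 4, among them fits without 1 of the moribund C57BL/6 pools.

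Ccl2 stood at 94.2 and 103 in the C3H/HeJ pools at 3 weeks, against 28.2 and 47.2 in the controls. The pools did not overlap, but the difference of 1.12 ± 0.44 did not pass the test (adjusted p = 0.23). Ccl4, at 211 and 170.2 against 81.6 and 127, differed by 0.8 ± 0.22 (adjusted p = 0.085). Dim Ccl7 read 45.5 and 47.0 against 9.46 and 5.3, and dim Ccl3 read 12.1 and 31.5 against 6.1 and 2.74, with adjusted p = 0.078 and 0.2 without the filter. The number of calls was 3 without the male control pool and 4 without either treated pool, and the calls of Ccl6, Ccr1 and Ccr2 were those that some of these fits lost. The Ccr1 call was lost under 17 of 36 alternative settings, among them the fit on the C3H/HeJ arrays alone (adjusted p = 0.14).

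In C3H/HeJ lung Ccl9 was lower at 6 weeks than at 3 weeks. Ccl9 read 241 and 279.9 at 6 weeks, against 652 and 614 at 3 weeks, a difference of -1.23 ± 0.14 (adjusted p = 0.00099). Its second probe set read 103 and 239, against 527 and 434, a difference of -1.5 ± 0.26 (adjusted p = 0.026), and its 2 pools at 6 weeks were far apart. The call of the second probe set was lost under 9 of 35 alternatives, among them the fits without the male pool at 6 weeks (-0.96, adjusted p = 0.061) and without the male pool at 3 weeks (-1.29, adjusted p = 0.071). The female pool at 6 weeks had the Gapdh ratio of 2.085, where the next highest array had 1.343, and with that ratio as a covariate the brightest probe set differed by -1.25 (adjusted p = 0.065). These 2 of 11 probe sets were called lower, where 0.0796% of all probe sets were. Ccl8 read 357 and 277 at 6 weeks against 768 and 477 at 3 weeks, and the difference of -0.91 ± 0.21 did not pass (adjusted p = 0.11). The other members differed by -0.24 to -1.21. Against control, 0 of 11 were called at 6 weeks by limma (0.0663% of all probe sets were called), with differences from -0.10 for Ccl2 to 0.74 for Ccl8. Of these, 4 had an unadjusted p under 0.05, the lowest adjusted p was 0.53, and 7 of 11 lay above both control arrays, against 19.4% of all probe sets.

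In A/J lung at 3 weeks Ccl9, Ccl6 and Ccr1 rose by about 1 on the log2 scale. Called higher were 5 of 11 probe sets, from these 3 of 7 genes, and 0 were lower, where 0.65% of all probe sets were higher. The member median was 0.93, against -0.01 over all, and 9 of 11 lay above both control arrays on all 4 treated arrays, as did 10.0% of all probe sets. Ccl9 read 408 and 426 in the male pools at 80 and 100 mg/kg and 502 and 531 in the female pools at 100 and 125 mg/kg, against 227 and 217 in the controls. All 4 treated pools were above the controls, and the change was 1.01 ± 0.12 (adjusted p = 0.00035). The second Ccl9 probe set read 322 to 456 in the treated pools, against 111 and 144 in the controls, and changed by 1.42 ± 0.22 (adjusted p = 0.003).

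Ccl6 read 2763, 2769.7, 2548 and 2752 in the 4 A/J pools at 3 weeks, against 1387 and 1434 in the controls. The treated pools were close together, and the probe sets of Ccl6 both changed by 0.93 (SE 0.14 and 0.13; adjusted p = 0.0021 and 0.00096). Ccr1 read 109 and 172 in the male and 145 and 160.0 in the female pools, against 58.0 and 55.3, a change of 1.14 ± 0.19 (adjusted p = 0.0051). Ccl8 read 301, 299, 252 and 398 against 181 and 167. The groups did not overlap, and the difference of 0.77 ± 0.18 did not pass (adjusted p = 0.071).

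Ccl2 read 42.3 to 98.3 in the A/J pools at 3 weeks against 25.1 and 45.7 in the controls, with overlap (0.70 ± 0.38, adjusted p = 0.57). The brightest Ccr2 probe set read 93.2 and 114 in the male and 157 and 188.5 in the female pools, against 102 and 117, also with overlap (0.26 ± 0.21, adjusted p = 0.74). The other Ccr2 probe sets did not overlap between groups and differed by 1.02 and 0.74 (adjusted p = 0.15 and 0.074). Each stayed uncalled under 31 of 35 alternative settings and passed under 4, among them fits without 1 of the moribund C57BL/6 pools. Ccl4 differed by 0.24 ± 0.19 (adjusted p = 0.73). Without the filter Ccl7, at 20.6 to 38.7 against 8.99 and 7.71, had adjusted p = 0.3, and Ccl3, at 2.04 to 13.8 against 1.93 and 9.9, had 0.93. The number of calls fell to 2 without the male control pool and was 0 on the values as deposited, without any scaling between arrays.

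At 6 weeks 0 of 11 members were called in A/J lung against control by limma (0.0994% of all probe sets were called). The differences ran from 0.21 to 0.72, with 7 at an unadjusted p under 0.05 and the lowest adjusted p at 0.5, and 10 of 11 lay above both controls, against 17.9% of all probe sets. Ccl9 read 315 and 323 at 6 weeks, against 227 and 217 in the controls, and Ccr1 read 113 and 94.3 against 58.0 and 55.3. Set against 3 weeks, the members at 6 weeks differed by -0.79 to -0.03, again with 0 calls (0.0133% of all probe sets were called) and 5 at an unadjusted p under 0.05.

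The test of the strain difference itself compared the change at 3 weeks between strains. The change in C57BL/6 exceeded that in A/J for Ccl9 by 1.63 ± 0.19 (log2, SE; limma, adjusted p = 0.00068), for Ccl8 by 1.4 ± 0.28 (adjusted p = 0.023) and for Ccr1 by 1.35 ± 0.29 (adjusted p = 0.032). These 3 of 11 members were called, where 0.603% of all probe sets had a greater change in C57BL/6. For Ccl2 the difference was larger and less precise, 2.15 ± 0.58 with an interval from 0.93 to 3.37 (adjusted p = 0.088). The second Ccl9 probe set differed by 1.12 ± 0.34 (adjusted p = 0.13) and the brightest Ccr2 probe set by 1.15 ± 0.33 (adjusted p = 0.11). For Ccl6 the intervals ran from -0.16 to 0.75 and from 0.18 to 0.99 in its 2 probe sets (adjusted p = 0.6 and 0.17), and for Ccl4 from -0.61 to 0.64 (adjusted p = 0.99).

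The Ccl9 difference between C57BL/6 and A/J passed under all 36 alternative settings, at 1.5 to 1.87. The Ccl8 and Ccr1 calls were lost under 9 and 11 of them. When the A/J pools with lower doses were left out, Ccl8 differed by 1.25 and Ccr1 by 1.17 (adjusted p = 0.12 and 0.11). The count of calls was 1 without each of the A/J and C57BL/6 control pools in turn or without the C57BL/6 male pool at 3 weeks, and 5 without the C57BL/6 female pool at 3 weeks.

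**Figure D3:**
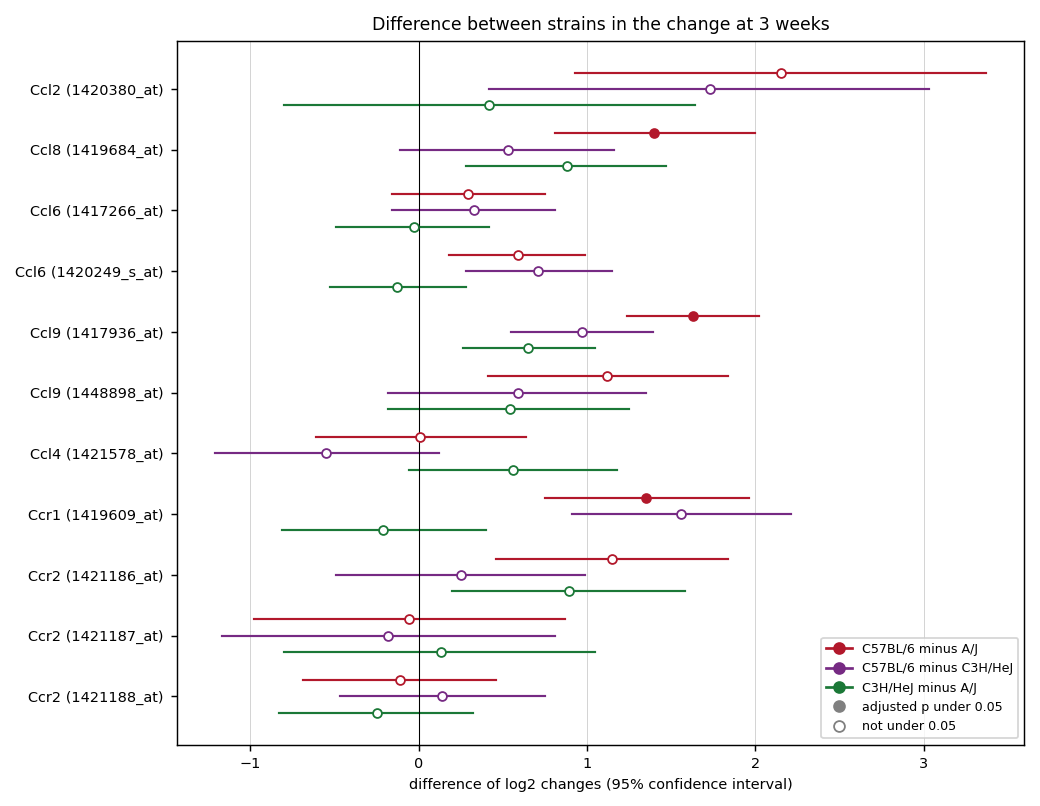
Difference between 2 strains in the log2 change at 3 weeks (with 95% confidence interval) for the 11 tested probe sets; filled points passed an adjusted p under 0.05. For C57BL/6 minus A/J the points of Ccl9 (1417936_at), Ccl8 and Ccr1 are filled, at 1.63, 1.4 and 1.35, and for the other pairs of strains 0 points are.

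Between C57BL/6 and C3H/HeJ 0 of 11 members passed by limma (0.152% of all probe sets were called), with 4 at an unadjusted p under 0.05. The nearest were Ccr1, at 1.56 ± 0.31 (adjusted p = 0.054), and Ccl9, at 0.97 ± 0.20 (adjusted p = 0.057), and there were 2 calls without either moribund pool, without the C57BL/6 female pool at 3 weeks or without the C3H/HeJ male pool at 3 weeks. Ccl2 differed by 1.73 ± 0.62 (adjusted p = 0.22), Ccl8 by 0.53 with an interval from -0.11 to 1.16, and Ccl4 by -0.55 with an interval from -1.21 to 0.12. Between C3H/HeJ and A/J 0 members passed at 3 weeks or at 6 weeks, as with 0.0% of all probe sets, and 3 and 0 had an unadjusted p under 0.05. The differences ran from -0.25 to 0.89 at 3 weeks and from -0.40 to 0.22 at 6 weeks. The pairs of strains share control and treated arrays, so their results are not independent.

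In control lung Ccl6, which was lowest in C57BL/6, was the 1 member gene with a call between strains. Its brightest probe set read 943.5 and 933 in C57BL/6, against 1599 and 1869.5 in C3H/HeJ, a difference of -0.87 ± 0.16 (adjusted p = 0.0072). The second probe set read 346 and 356 against 608 and 684, a difference of -0.85 ± 0.15 (adjusted p = 0.0036). These 2 of 11 members were called lower, where 1.18% of all probe sets were. Against A/J, with 1387 and 1434, the brightest probe set differed by -0.58 ± 0.16 (adjusted p = 0.065), and the second by -0.55 ± 0.15 (adjusted p = 0.049), the 1 call among the members, where 1.19% of all probe sets were called lower. That call was lost under 21 of 35 alternative settings. In the same comparison 3 members had an unadjusted p under 0.05 by limma. The largest difference there, -0.77, was that of the second Ccl9 probe set and was not called. It read 66.6 and 68.8 in C57BL/6 controls against 111 and 144 in A/J controls. The C3H/HeJ calls fell to 0 without the female C3H/HeJ control pool. Between C3H/HeJ and A/J controls 0 members passed by limma (1.01% of all probe sets were called, and 0 members had an unadjusted p under 0.05), with differences from -0.52 to 0.37.

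Over the 10 groups of strain and stage, the order of the mean levels differed between the genes. Ccl9 (brightest probe set) was highest in C57BL/6 at 3 weeks (mean 1211) and moribund (1185), followed by C57BL/6 at 6 weeks (891), C3H/HeJ at 3 weeks (633), A/J at 3 weeks (467), A/J at 6 weeks (319) and C3H/HeJ at 6 weeks (260.4). The A/J (222), C3H/HeJ (189) and C57BL/6 (181.5) controls came last. Only the first pair and the last pair of neighbours overlapped in their arrays. The second Ccl9 probe set had another order at the top. Moribund came first (657), then C57BL/6 at 6 weeks (494.5), C3H/HeJ at 3 weeks (480) and C57BL/6 at 3 weeks (472). On it the C57BL/6 arrays at 3 weeks (471 and 473) lay between the C3H/HeJ arrays at 3 weeks (434 and 527). Ccr1 ran from 402 in moribund and 341 in C57BL/6 at 3 weeks to 78.2, 56.7 and 46.6 in the C3H/HeJ, A/J and C57BL/6 controls. Ccl8 ran from 1056 in C57BL/6 at 3 weeks and 996 in moribund to 174 in A/J controls, and Ccl2 from 307 in moribund and 241 in C57BL/6 at 3 weeks to 19.8 in C57BL/6 controls. Its 7 lowest groups, from C57BL/6 at 6 weeks down, each overlapped the next. The brightest Ccl6 probe set had another order, with C3H/HeJ at 3 weeks on top (3253), C57BL/6 at 6 weeks next (2829) and C57BL/6 controls at the bottom (938). Its second probe set shared only the bottom, C57BL/6 controls (351). There moribund (1156) and C3H/HeJ at 3 weeks (1138) were on top, and C57BL/6 at 6 weeks stood lower (837).

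Probe sets of one gene followed each other over the 21 arrays at r = 0.91 for Ccl6, 0.92 for Ccl9 and 0.78 for Ccr1 (Pearson, log2 values, given as a description, since arrays share strain and stage). For Ccr2 the brightest probe set followed the other two at 0.82 and 0.55, and these followed each other at 0.49. Between members, Ccr1 followed Ccl9 at 0.95, Ccl2 at 0.93 and Ccl8 at 0.91, and Ccl9 followed Ccl8 at 0.93. Ccl6 was less like the others, at 0.39 with Ccr2, 0.5 with Ccl2, 0.55 with Ccl8, 0.63 with Ccl9 and 0.65 with Ccr1. Ccl4 lay between 0.49 and 0.57 with all the others. Among the other tested genes, those whose pattern over the arrays was most like a member were, for Ccl9, C3ar1 (the receptor of complement C3a, r = 0.971), Tgfbi (0.954) and Ctsb (0.95). For Ccr1 they were Serpina3n (0.968), Timp1 (0.956) and Lgmn (0.95), and for Ccl8 C1qa (0.968), Cstb (0.964) and Timp1 (0.958). For Ccl2 they were Ackr1 (0.939), Timp1 (0.926) and Ninj1 (0.925). For Ccl6 they were Csf2ra (0.916), Cd68 (0.889) and F7 (0.886), for Ccr2 Cxcl10 (0.898), Cfb (0.882) and Retnla (0.881), and for Ccl4 Dusp10 (0.76), Atox1 (0.754) and Oas3 (0.739).

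Some of the other chemokine and receptor genes passed the test, and many were too dim to be tested. Of all probe sets, 5.66% were called higher in C57BL/6 at 3 weeks, 5.86% in moribund and 0.65% in A/J at 3 weeks. Of 14 other CC ligands listed, 3 were bright enough to test, and Ccl17, a ligand of Ccr4, rose by 1.13 in C57BL/6 at 3 weeks, 0.82 in moribund and 0.76 in A/J at 3 weeks (adjusted p = 0.0012, 0.011 and 0.046). Ccl5 (0.08, adjusted p = 0.9) and Ccl22 (-0.10, adjusted p = 0.93) did not pass in C57BL/6 at 3 weeks. Of 4 tested genes among the other CC receptors and scavengers, Ackr1, the Duffy receptor that binds chemokines without signalling, rose by 1.69 in C57BL/6 at 3 weeks and 2.05 in moribund (adjusted p = 0.00062 and 9e-05). Ccr6, Ccrl2 and Ackr2 did not pass (adjusted p from 0.074 to 0.87 in these 2 groups). Neither list had a call in C3H/HeJ at 3 weeks.

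**Figure D4:**
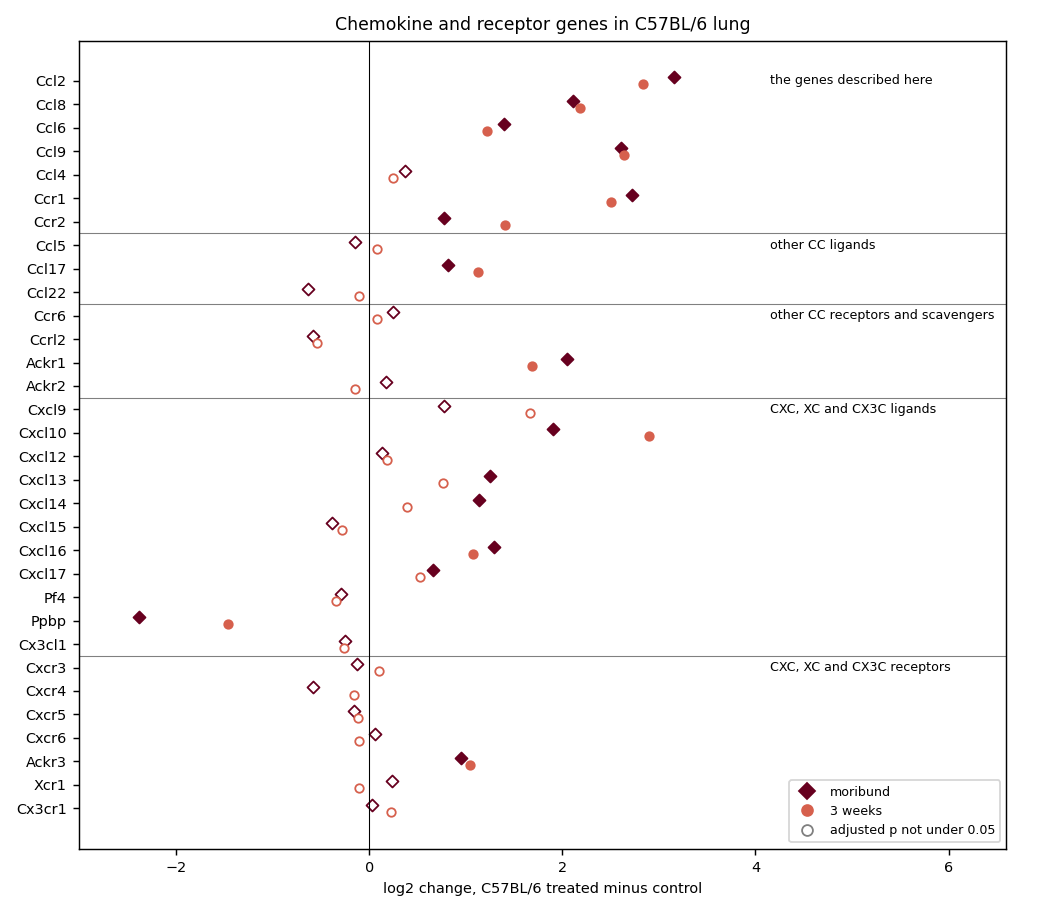
Log2 change from control in C57BL/6 lung, moribund (diamonds) and at 3 weeks (circles), for the brightest probe set of each tested gene of the chemokine families; open symbols did not pass an adjusted p under 0.05. Ccl2 lies furthest to the right, at 3.16 in moribund, with Cxcl10 at 2.9 at 3 weeks, and Ppbp, at -1.46 and -2.38, lies furthest to the left.

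The share of all probe sets called lower was 5.04% in C57BL/6 at 3 weeks, 6.9% in moribund and 0.57% in C3H/HeJ at 3 weeks, beside the 5.66, 5.86 and 1.13% called higher. Of 11 tested ligands of the other chemokine families, 2 rose and 1 fell in C57BL/6 at 3 weeks, and 5 rose and 1 fell in moribund. Cxcl10, an interferon-induced T cell attractant, rose by 2.9 at 3 weeks and 1.9 in moribund C57BL/6 and by 2.28 in C3H/HeJ at 3 weeks (adjusted p = 2.3e-05, 0.00086 and 0.0012). In A/J at 3 weeks it differed by 0.37 (adjusted p = 0.7). Cxcl16 rose by 1.08 and 1.29 in the 2 C57BL/6 groups (adjusted p = 0.0003 and 5.6e-05). Ppbp, a platelet chemokine, fell by 1.46 and 2.38 (adjusted p = 0.0096 and 0.00019). Of 7 tested receptors, Ackr3, a scavenger of Cxcl12, was the 1 that rose, by 1.04 and 0.95 (adjusted p = 0.00081 and 0.0015).

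Among 17 tested genes of the signalling path below the receptors, 1 rose in C57BL/6 at 3 weeks, Arrb2 (beta-arrestin 2) at 0.73 (adjusted p = 0.0094), and 2 rose in moribund, Arrb2 at 0.55 and the kinase Fgr at 0.75 (adjusted p = 0.039 and 0.008), where 5.66 and 5.86% of all probe sets rose. For a list of this size both counts are near that background. Fgr also rose in C3H/HeJ at 3 weeks, by 0.84 (adjusted p = 0.016), and 0 genes of the list passed in A/J. Of 17 tested cytokines and transcription factors known to act upstream of chemokine genes, 4 rose and 1 fell in C57BL/6 at 3 weeks and 5 rose and 1 fell in moribund. Irf7, an interferon regulator, rose by 1.97 and 1.13 in these groups and by 1.55 in C3H/HeJ at 3 weeks (adjusted p = 2.4e-05, 0.0028 and 0.0013). Spi1, which encodes PU.1, rose by 0.8 and 0.76 (adjusted p = 0.0062 and 0.0076), Irf5 by 0.76 and 0.61 (adjusted p = 0.0071 and 0.022), and Relb, of the NF-kappa B family, by 1.1 in moribund (adjusted p = 0.0038).

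Markers of monocytes, macrophages and neutrophils also rose, at 3 weeks, in moribund lung and in part at 6 weeks. Of 23 monocyte and macrophage markers, 15 rose in C57BL/6 at 3 weeks, 16 in moribund, 13 in C3H/HeJ at 3 weeks (where 1 fell) and 4 in A/J at 3 weeks, with median changes of 1.28, 1.47, 0.93 and 0.48. At 6 weeks, where 0 members were called, 3 of these markers rose in C3H/HeJ and 2 rose and 1 fell in A/J (medians 0.35 and 0.36). Their summed intensity was 27849 to 28906 in C57BL/6 at 3 weeks and 27024 to 30509 in moribund, against 14843 to 14956 in control. It was 20551 to 21463 in C3H/HeJ at 3 weeks and 17548 to 18663 at 6 weeks, against 16239 to 17271 in control, and 17342 to 19547 in A/J at 3 weeks and 17399 to 17791 at 6 weeks, against 14304 to 15236 in control. Lyz2, 1 of these markers, read 5078.7 to 7195.7 over all arrays and made up a large part of the sums in control lung. Gpnmb rose by 3.58 in C57BL/6 at 3 weeks and C1qa by 2.57 (adjusted p = 1.2e-08 and 2.1e-06).

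Of 12 neutrophil markers, 8 rose in C57BL/6 at 3 weeks, 8 in moribund, 5 in C3H/HeJ at 3 weeks and 8 in A/J at 3 weeks, with medians of 0.98, 1.05, 0.71 and 1.48. At 6 weeks 0 rose in C3H/HeJ and 4 in A/J (medians 0.5 and 0.89). The summed intensity of the 13 neutrophil markers on the array, 1 of them too dim to test, was 7200 to 7607 in C57BL/6 at 3 weeks and 7006 to 8841 in moribund, against 2495 to 3110 in control. It was 7880 to 8117 in C3H/HeJ at 3 weeks and 4618 to 5366 at 6 weeks, against 2507 to 3752 in control. In A/J it was 8482 to 13847 at 3 weeks and 6784 to 9224 at 6 weeks, against 2495 to 2549 in control. No marker of these 2 lists was at 0, and their part in the changes of the chemokine genes was not tested. Of 7 B cell markers, 4 fell in C57BL/6 at 3 weeks and 4 in moribund, with Cd79a at -1.36 at 3 weeks (adjusted p = 0.00078). Of 9 T and NK cell markers, Gzma fell by 2.07 in moribund (adjusted p = 0.0012) and 0 rose. Of 3 tested eosinophil, mast cell and basophil markers, Kit fell by 0.63 and 0.86 in the 2 C57BL/6 groups (adjusted p = 0.037 and 0.0056). Of 13 lung epithelium and endothelium markers, 6 fell and 2 rose in C57BL/6 at 3 weeks and 5 fell in moribund.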

How the data were processed

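Lung RNA of 21 pools was extracted with Trizol and put on Affymetrix arrays by standard procedures, per the labels' protocols. The authors deposited 1 table of linear intensity for 22690 probe sets. The sources used here do not say how the probes were summarised and scaled. The 64 control probe sets were left out. Of the remaining 22626, 20380 had 1 gene symbol, 691 several and 1555 none. Symbols come from the platform annotation, of which 20351 were found in a RefSeq gene table (GRCm38.p6), the source of positions and promoter sequences too. Coordinates are on that build and not from the deposited file.

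Intensities were quantile normalised between arrays, 16 was added, and log2 was taken. A filter on the mean of the 21 arrays dropped the dimmest 33.3% and kept 15084 probe sets. In R 4.3.3, limma 3.58.1 fitted 10 groups and sex to the 21 arrays (eBayes with trend, 10 residual degrees of freedom, 16.4 after shrinkage). Tests were two-sided, with Benjamini-Hochberg adjustment over all 15084 probe sets of a comparison and calls at an adjusted p under 0.05. Precision is limited by the number of arrays, mostly 2 in a group. The procedure was also run on simulated data with independent normal noise for each probe set. Its outcome is not given here, and such data do not show how the procedure performs on these arrays.

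The genes, the lists and the tests were chosen with earlier results of these data known. All probe sets of the 9 genes are named. Named of each list are up to 3 genes with the smallest p in C57BL/6 at 3 weeks and up to 3 in moribund, and for each member gene the 3 most correlated tested genes. In a list, the brightest probe set stands for a gene. Alternatives were the deposited scaling, scaling to one median, offsets of 1 and 64, no filter or a filter on the dimmest 50%, no sex term, the arrays of the compared strains alone, 1 probe set per gene, an adjusted p under 0.10, array weights, leaving out the A/J pools with lower doses and leaving out each array. Added after the data were seen were covariates for array brightness and for the Gapdh ratio, and a fit that dropped the 2 male arrays with most Xist.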

Additional observations from a re-analysis of the deposited data

Results flagged for a closer look

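The change at 3 weeks differed between C57BL/6 and A/J, by the test of the difference itself, for Ccl9 (1417936_at) by 1.63, for Ccl8 by 1.4 and for Ccr1 by 1.35 on the log2 scale (limma, adjusted p = 0.00068, 0.023 and 0.032). The second Ccl9 probe set (1448898_at) differed by 1.12 and did not pass (limma, adjusted p = 0.13). The Ccl8 and Ccr1 calls were lost under 9 and 11 of 36 alternative settings. Among the 4 A/J arrays at 3 weeks, the female pool at 100 mg/kg stood apart for Ccl6 (1417266_at), at 2548.4 against 2751.6 to 2769.7 in the other pools. By chance about 1 in 20 groups of 4 holds such an array. These 4 pools also differed from each other in sex or dose, and all lay well above the controls, at 1387 and 1434.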

How the results depend on the processing

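Of 83 results for single member probe sets, 42 kept their side of the threshold and their sign under each of the 35 or 36 alternatives run for them. The counts of calls in C57BL/6 stayed at 6 to 11 at 3 weeks and 6 to 9 in moribund lung, and the calls of Ccl2, Ccl6, Ccl8, Ccl9 and Ccr1 held there throughout. On the values as deposited the calls numbered 0 in A/J at 3 weeks, 2 in C3H/HeJ at 3 weeks, 0 in C3H/HeJ at 6 against 3 weeks, 1 for the change in C57BL/6 minus A/J, and 0 among controls for C57BL/6 against A/J and against C3H/HeJ. That setting put the median change of all probe sets at -0.18 in C57BL/6, -0.30 in C3H/HeJ and -0.34 in A/J at 3 weeks and at -0.28 in moribund lung. The share of higher among all calls then was 32.1% in A/J, 37.7% in C3H/HeJ and 21.1% in moribund, against 77.2, 66.5 and 45.9% after quantile normalisation.

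Scaling to one median gave 4 calls in C3H/HeJ at 3 weeks, 1 at 6 against 3 weeks, 2 for C57BL/6 minus C3H/HeJ and 0 for C57BL/6 against A/J controls. With 1 probe set per gene, A/J at 3 weeks had 3 calls, C3H/HeJ at 6 against 3 weeks 1, C57BL/6 minus C3H/HeJ 2, and the C57BL/6 controls 0 against A/J and 1 against C3H/HeJ. Array weights gave 8 in A/J at 3 weeks, 1 in C3H/HeJ at 6 against 3 weeks, 6 for C57BL/6 minus A/J, 2 for C57BL/6 minus C3H/HeJ and 3 for C57BL/6 against A/J controls. The arrays of the compared strains alone gave 2 in C3H/HeJ at 3 weeks, 0 at 6 against 3 weeks and 2 for C57BL/6 against A/J controls. For C57BL/6 minus C3H/HeJ, offsets of 1 and 64 and no sex term each gave 1 call, and the dimmest 50% left out, an adjusted p under 0.10, the brightness covariate and the fit that dropped 2 male arrays with most Xist each gave 2. For C57BL/6 against A/J controls, an adjusted p under 0.10 gave 2, and the offset of 64, no filter, the fit without lower A/J doses, both covariates and the fit without those male arrays gave 0. The fit without lower A/J doses and the Gapdh covariate each gave 1 for C57BL/6 minus A/J. They, no filter and the fit without those male arrays gave 1 in C3H/HeJ at 6 against 3 weeks.

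Leaving out each array gave 2 to 7 calls in A/J at 3 weeks, 3 to 8 in C3H/HeJ at 3 weeks, 1 to 2 at 6 against 3 weeks, 1 to 5 for C57BL/6 minus A/J, 0 to 2 for C57BL/6 minus C3H/HeJ, and 0 to 3 and 0 to 2 for C57BL/6 against A/J and C3H/HeJ controls. The sign turned in 9 cases, 0 of them called. As deposited, Ccr2 (1421186_at) and Ccl4 in A/J at 3 weeks were at -0.03 and -0.06. Over the fits that leave out 1 array, Ccl2 in A/J at 6 weeks ran from -0.02 to 0.62 and Ccl4 in C57BL/6 at 3 weeks from -0.08 to 0.58. In C3H/HeJ at 6 weeks Ccr2 (1421187_at) ran from -0.01 to 0.49, Ccl9 (1448898_at) from -0.09 to 1.0, and Ccl2 from -0.38 to 0.19, with 0.08 without the female pool at 6 weeks. The Gapdh covariate put that Ccl2 difference at 0.13. The causes of these shifts were not tested. Where all probe sets are counted, C57BL/6 at 3 weeks had 467 to 2792 calls, moribund 718 to 2765, C3H/HeJ 53 to 505 and A/J 38 to 216. No paired analysis was possible because the labels give no replicate numbers that tie pools together. The sex of each pool, which they do give, was a term of the fit.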
